A study of Mus musculus with 9 samples.

Results

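The major histocompatibility complex (MHC) class II genes were examined as 7 members, *Cd74*, *H2-Aa*, *H2-Ab1*, *H2-Eb1*, *H2-DMa*, *H2-DMb1* and *Ciita*, among 22262 genes that had at least 1 count in the 9 libraries. They were chosen by name as the genes of class II presentation and found through their Ensembl identifiers, and all 7 had counts and passed the filter on low values. RNA came from the upper colon of 9 female wild-type C57BL/6N mice that were 12 months old. Of these, 4 were from standard environment housing (WT_SE, numbered 1, 2, 3 and 5) and 5 from enriched environment housing (WT_EE, numbered 1 to 5). Both groups lived in shared cages from weaning. WT_SE mice were kept in smaller groups in standard cages. WT_EE mice were kept in larger groups in larger cages with more nesting material, changing objects, tunnels, climbing cubes and wheels. The paper names normal chow and tap water for the standard housing and gives no diet for the enriched housing. Each library was a piece of whole colon wall of 2 to 3 cm from 1 mouse, no label ties a mouse to a cage, and transgenic mice of the same experiment were not analysed here.

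Class II molecules are pairs of an alpha and a beta chain that show peptides from taken-up material to CD4+ T cells. The invariant chain, encoded by *Cd74*, holds the groove closed during assembly, and H2-DM exchanges its last fragment for a peptide. The genes are switched on together by Ciita, a coactivator that does not bind DNA itself but joins proteins seated on conserved boxes of their promoters, and in the gut they are mainly active in dendritic cells, macrophages and B cells, and in epithelium after interferon-γ.

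*H2-Ab1* lies on the plus strand of chromosome 17 from 34257689 to 34269419, *H2-Aa* on the minus strand from 34282744 to 34287823, *H2-Eb1* on the plus strand from 34305867 to 34316674, *H2-DMa* on the plus strand from 34119541 to 34139101 and *H2-DMb1* on the plus strand from 34153072 to 34160230 (GRCm38, GENCODE mouse release 21). *Ciita* lies on the plus strand of chromosome 16 from 10480059 to 10528418, and the position of *Cd74* is given with its values. Of the 7 members, 4 had a promoter window in the RefSeq table (GRCm38.p6), and *Cd74*, *H2-Ab1* and *Ciita* had none. Promoters are shown because the members moved together between mice, as described below for the plot of each gene against *Cd74*. The capitals mark a run of 13 bases, AACTGATGATGCT, that *H2-Eb1* and *H2-DMb1* share, and the letters ATTGG or its reverse CCAAT, the core of the Y box bound by NF-Y. The stretches before the starts of *H2-Eb1* (chr17:34305747-34305866, plus strand) and *H2-Aa* (chr17:34287824-34287943, minus strand) have 120 bases each, and that of *H2-DMb1* (chr17:34153099-34153128, plus strand) has 30 bases because GENCODE starts this gene further upstream than RefSeq.
H2-Eb1: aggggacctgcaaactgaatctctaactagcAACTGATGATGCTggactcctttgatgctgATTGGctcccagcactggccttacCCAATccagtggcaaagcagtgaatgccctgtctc
H2-DMb1: AACTGATGATGCTaggctgattcactcagt
H2-Aa: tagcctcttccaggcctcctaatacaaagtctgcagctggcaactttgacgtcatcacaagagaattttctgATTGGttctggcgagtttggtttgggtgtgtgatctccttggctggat
The shared run begins 89 bases before the start of *H2-Eb1* and 92 bases before the RefSeq start of *H2-DMb1*. By the GENCODE start given above, the printed *H2-DMb1* stretch lies inside the gene. The run is followed after 17 bases in *H2-Eb1* and 18 bases in *H2-DMb1* by ATTGG, which in *H2-Aa* begins 48 bases before the start. The 30 bases printed for *H2-DMb1* end before its ATTGG. On either strand, the run occurred in 3 of 32851 promoter windows of 300 bases, the third being that of *Slc39a10*, and ATTGG occurred in 37.4% of them. The run was picked as the longest that the *H2-Eb1* and *H2-DMb1* windows share, so both were bound to be counted and its rarity is no test. With *H2-Eb1* and with *H2-DMb1*, the longest run shared by *H2-Aa* had 8 bases. Of the *H2-DMa* windows, 1 held no ATTGG on either strand and the other held 1, which began 198 bases before its start. These matches are descriptions of letters in a window and were not tested for binding.

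The 9 libraries held 295535 to 454043 counts each. The deposited values are 3′ messenger RNA counts, which do not grow with transcript length, so that levels of different genes can be set side by side. Counts were scaled to count-per-million (CPM) with TMM factors, and the floor of 3 counts used for a detectable level equals 6.48 to 10.5 CPM. Summed counts of genes with a mean of 40 to 80 counts grew with the library total with a slope of 1.04 on log scales over the 9 libraries, against 0.55 for genes with a mean of 80 to 160, 1.30 for those of 20 to 40 and 1.34 for those of 5 to 20. These slopes rest on 9 libraries, and where they depart from 1, levels and folds of low and high genes may be distorted. The libraries of WT_SE mice 1 and 3 carry another ending in their name than the other 7. The sources used here do not say what this ending stands for, no WT_EE library has it, and it touches every comparison of the members below. Within an environment, pairs of libraries differed by a chi-square per degree of freedom of 1.19 to 2.55, and none was treated as a repeat of another. The labels do not tell whether any mice were litter mates.

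Among the members, the chains of the class II molecules and the invariant chain had the highest levels. Means over all 9 mice were 164 ± 64.2 CPM for *H2-Ab1*, 160 ± 57.0 for *H2-Aa*, 144 ± 74.6 for *Cd74*, 115 ± 35.8 for *H2-Eb1*, 60.4 ± 37.9 for *H2-DMb1*, 27.8 ± 21.3 for *Ciita* and 17.3 ± 8.48 for *H2-DMa* (SD, n = 9). *H2-Eb1* exceeded *H2-DMb1* in 9 of 9 libraries, as did *H2-DMb1* *Ciita*. The neighbours *H2-Ab1* and *H2-Aa*, *H2-Aa* and *Cd74*, *Cd74* and *H2-Eb1*, and *Ciita* and *H2-DMa* differed by less than the SD of their log2 ratio between mice.

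Across the mice, the class II genes were low in WT_SE mice 1 and 3 and WT_EE mouse 4 and high in WT_SE mice 2 and 5. Summed over the members, the level was 402, 950, 328 and 1112 CPM in WT_SE mice 1, 2, 3 and 5. In WT_EE mice 1 to 5 it was 747, 917, 739, 393 and 606 CPM. WT_EE mouse 4 was among the 3 lowest mice for 7 of 7 members, WT_SE mice 1 and 3 for 6 each, and WT_SE mice 2 and 5 were among the 3 highest for 6 each. In whole colon wall, fewer presenting cells and less class II RNA per cell cannot be told apart.

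**Figure D1:**
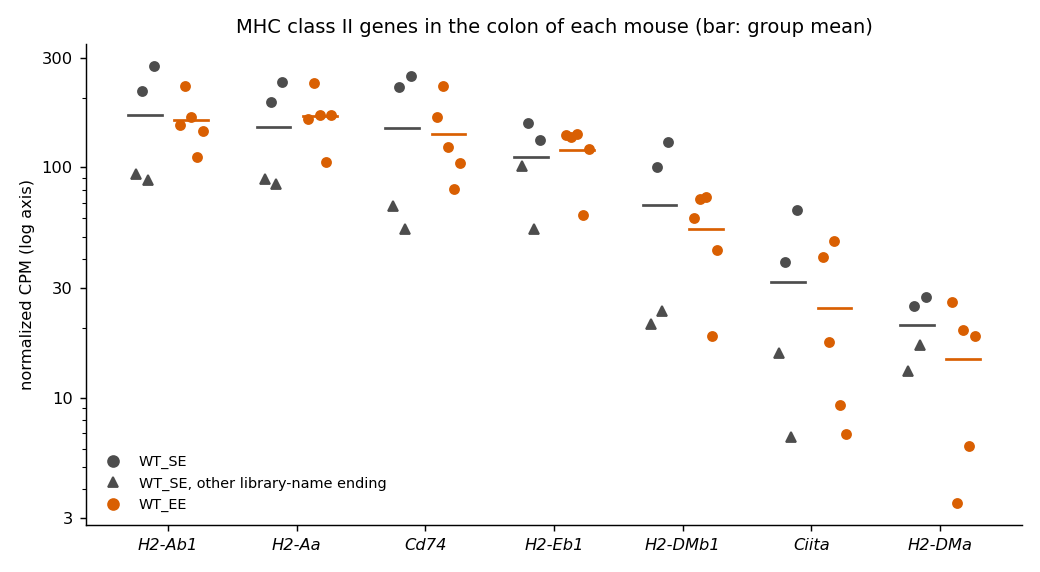
Normalized CPM of each class II gene (log axis) in each of the 4 WT_SE mice (grey) and 5 WT_EE mice (orange), with bars at the group means. Triangles are the WT_SE mice 1 and 3 with the other library-name ending. For each of the 7 genes the environments overlapped, and the triangles were the lowest WT_SE values.

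Starting with the peptide-binding chains, *H2-Ab1*, the beta chain of the I-A molecule, had 36, 77, 26 and 101 counts in WT_SE mice 1, 2, 3 and 5. In WT_EE mice 1 to 5 it had 71, 65, 76, 36 and 62 counts. The WT_EE values lay inside the range of the WT_SE values, and the highest and lowest mice of all were both WT_SE. The means were 168 ± 92.6 CPM in WT_SE (SD, n = 4) and 160 ± 42.3 CPM in WT_EE (SD, n = 5), which is a log2 fold change of -0.10 (SE 0.22, where SE is the standard error of the fit). The p-value of edgeR's quasi-likelihood test was 0.959 once adjusted by Benjamini-Hochberg.

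*H2-Aa*, its alpha chain, had 34, 69, 25 and 86 counts in WT_SE and 75, 67, 77, 34 and 73 in WT_EE, in the same order of mice. The same mice were low and high as for *H2-Ab1*, and the environments overlapped. The level was 150 ± 75.4 CPM in WT_SE (SD, n = 4) and 168 ± 45.5 CPM in WT_EE (SD, n = 5). The log2 fold change was 0.14 (SE 0.22).

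*H2-Eb1*, the beta chain of I-E, had 39, 56, 16 and 48 counts in WT_SE and 64, 39, 64, 20 and 52 in WT_EE. WT_SE mouse 1, at 102 CPM, was less low here than WT_SE mouse 3 and WT_EE mouse 4, at 54.1 and 61.9 CPM, and the environments overlapped. The level was 111 ± 43.8 CPM in WT_SE (SD, n = 4) and 119 ± 33.0 CPM in WT_EE (SD, n = 5), with a log2 fold change of 0.10 (SE 0.22). Its partner alpha chain gene, listed as *H2-Ea-ps*, had 0 counts in all 9 libraries, and C57BL/6 mice are known to lack a working copy.

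*Cd74*, on the plus strand of chromosome 18 from 60803848 to 60812652, had 26, 80, 16 and 91 counts in WT_SE mice 1, 2, 3 and 5 and 77, 65, 56, 26 and 45 in WT_EE mice 1 to 5. WT_SE mice 1 and 3 were below every WT_EE mouse in CPM, WT_SE mouse 5 was above all of them, and WT_SE mouse 2 lay between WT_EE mice 1 and 2. The level was 148 ± 102 CPM in WT_SE (SD, n = 4) and 140 ± 57.7 CPM in WT_EE (SD, n = 5), with a log2 fold change of -0.12 (SE 0.27).

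*H2-DMb1*, the beta chain of the peptide exchanger, had 8, 36, 7 and 47 counts in WT_SE and 28, 21, 34, 6 and 19 in WT_EE. Of the 5 members above the floor in every library it differed most between mice, 6.92-fold from the lowest to the highest CPM. The level was 68.3 ± 54.4 CPM in WT_SE (SD, n = 4) and 54.1 ± 23.3 CPM in WT_EE (SD, n = 5), with a log2 fold change of -0.34 (SE 0.35). In the last 300 bases of their longest coding transcripts, *H2-DMb1* and its neighbour *H2-DMb2* were 85.5% identical over 152 aligned bases, so a part of the counts could be shared between them.

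*H2-DMa*, the alpha chain, had 5, 9, 5 and 10 counts in WT_SE and 12, 1, 9, 2 and 8 in WT_EE. WT_EE mouse 2, which was high for *Cd74* and *H2-Aa*, had the lowest value of *H2-DMa*, and it and WT_EE mouse 4 were under the floor. The log2 fold change was -0.37 (SE 0.44). *Brd2* overlaps *H2-DMa* on the opposite strand, and whether the counting used strand is not given in the sources used here.

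*Ciita* had 6, 14, 2 and 24 counts in WT_SE and 19, 5, 22, 3 and 3 in WT_EE. WT_SE mouse 3 and WT_EE mice 4 and 5 were at or under the floor, and WT_SE mouse 5 was highest, as it was for every other member except *H2-Eb1*. The log2 fold change was -0.32 (SE 0.45). *Dexi* overlaps *Ciita* on the opposite strand.

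No member was called between the environments: 0 of 7 had an unadjusted p-value under 0.05 by edgeR's quasi-likelihood test, against 7.65% of the 17441 genes tested. DESeq2 and limma-voom also called 0 members. The unadjusted p-values of edgeR lay between 0.332 and 0.669 and those adjusted by the Benjamini-Hochberg method between 0.863 and 0.959, and 0.0401% of all genes passed the adjusted limit. The median log2 fold change of the members was -0.12, with 2 of 7 higher in WT_EE, beside a median of 0.01 over all genes. For 0 of 7 members did the environments fail to overlap, against 2.58% of all genes, and two-sided exact permutation of the 9 mice into groups of 4 and 5 gave p-values of 0.357 to 0.913. With SEs of 0.22 to 0.45 on the log2 scale, differences of the size seen were not detectable in these libraries.

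The result depended on WT_SE mice 1 and 3. Without them, 2 WT_SE mice were compared with 5 WT_EE mice, and 4 of 7 members were lower in WT_EE at an unadjusted p-value under 0.05, against 1.5% of genes called in this direction. These were *Cd74* with a log2 fold change of -0.76 (SE 0.23), *H2-Ab1* with -0.61 (0.20), *H2-DMb1* with -1.05 (0.30) and *Ciita* with -0.99 (0.44), and their unadjusted p-values by edgeR were 0.00213, 0.00412, 0.00133 and 0.0330. *H2-Aa* had a log2 fold change of -0.35 (0.20), *H2-Eb1* of -0.24 (0.23) and *H2-DMa* of -0.69 (0.50), none of which passed. The members are not independent of each other. In these 7 libraries, *Cd74* had r = 0.94 with *H2-Ab1*, 0.89 with *H2-DMb1* and 0.65 with *Ciita*. Leaving out WT_SE mice 1 and 3 also removed the lowest WT_SE values of every member. The 4 calls are therefore not 4 separate observations, and their share beside 1.5% is a description. With Benjamini-Hochberg adjustment over all genes, the edgeR p-values of the 7 members were 0.791 to 0.994. Exact permutation over the 21 ways to part these 7 mice gave p = 0.0476 for *H2-DMb1*, the smallest value this design allows, and 0.0952 to 0.429 for the others. With the name ending as a covariate in all 9 libraries, 4 of 7 members were again lower in WT_EE, against 1.66% of genes, with *Cd74* at -0.77 (0.22) and *H2-DMb1* at -1.06 (0.29). Since this fit takes the environment difference from WT_SE mice 2 and 5 alone, it is no separate evidence, and the name ending and the difference between mice within WT_SE cannot be told apart. WT_EE mouse 4, whose library has the usual ending, lay below WT_SE mice 1 and 3 in *H2-DMb1* (18.6 CPM against 20.9 and 23.7 CPM) and *H2-DMa*. It lay between them in *H2-Eb1* and *Ciita*, and above both in *Cd74* (80.4 CPM against 67.9 and 54.1 CPM), *H2-Aa* and *H2-Ab1*. The part of the name ending in these values was not tested.

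**Figure D2:**
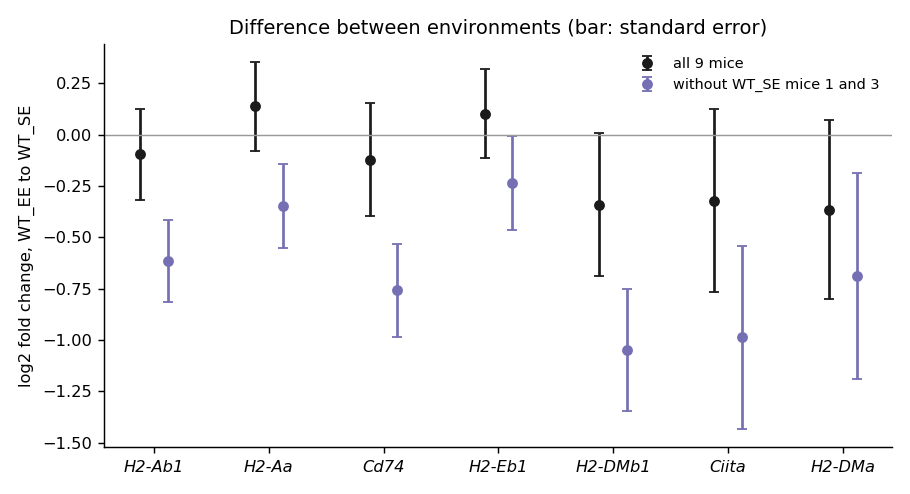
Log2 fold change of WT_EE to WT_SE with its standard error for each class II gene, in all 9 mice (black) and without WT_SE mice 1 and 3 (purple). Black points lie between -0.37 and 0.14, and purple points between -1.05 and -0.24.

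The members differed between mice of the same environment more than most genes did. The SD of log2 CPM within environments was 0.83 for *Cd74*, 0.97 for *H2-DMb1*, 0.59 for *H2-Ab1*, 0.56 for *H2-Aa* and 0.55 for *H2-Eb1*. Genes whose mean count was within 1.2-fold of that of the member had a median SD of 0.22, 0.33, 0.21, 0.21 and 0.24 in the same order. Of these genes, 99.3% had a lower SD than *Cd74*, 99.1% than *H2-DMb1* and 95.8% than *H2-Eb1*. For *Ciita* the share was 99.3% and for *H2-DMa* 81.5%. These SDs include the gap between the name endings within WT_SE. *Cd74* was at 67.9 and 54.1 CPM in WT_SE mice 1 and 3 and at 223 and 249 CPM in WT_SE mice 2 and 5. The part of the name ending in the SDs was not tested. The 11 genes of class I presentation with a mean of at least 20 counts, among them *B2m*, *H2-K1* and *Tapbp*, had SDs of 0.10 to 0.51, all below the 0.55 to 0.97 of the 5 members of that level. Beside genes of like count, some of them also spread widely. The share with a lower SD was 93.7% for *H2-Q7*, 92.5% for *Psmb8*, 89.4% for *Tap1* and 89.0% for *Psmb9*. It was 50.6% to 73.2% for *H2-K1*, *H2-D1*, *H2-T22*, *Psmb10* and *Erap1*, 12.5% for *B2m* and 3.62% for *Tapbp*. Several class I genes had higher counts, in the range where counts grew less than the library totals.

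Mice with more *Cd74* had more of most other members. Over the 9 mice, log2 CPM of *Cd74* and *H2-Ab1* had Pearson's r = 0.97 (exact permutation p = 7.4e-05) and Spearman's rho = 0.98 (p = 5e-05). For *H2-Aa*, r was 0.95 (exact permutation p = 0.000113) and rho 0.93 (p = 0.00075). For *H2-DMb1*, r was 0.92 (exact permutation p = 0.00108) and rho 0.85 (p = 0.00607). *H2-Eb1* followed with r = 0.81 (exact permutation p = 0.00381) and rho = 0.70 (p = 0.0433). *Ciita* had r = 0.73 (exact permutation p = 0.0346) and rho = 0.77 (p = 0.0214). *H2-DMa*, at 1 to 12 counts, had r = 0.19 (exact permutation p = 0.619) and rho = 0.45 (p = 0.23).

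After Benjamini-Hochberg adjustment over these 6 relations, the exact permutation p-values of r were 0.000339 for *H2-Ab1* and *H2-Aa*, 0.00215 for *H2-DMb1*, 0.00571 for *H2-Eb1*, 0.0415 for *Ciita* and 0.619 for *H2-DMa*. Those of rho were 0.000298, 0.00225, 0.0121, 0.0519, 0.0321 and 0.230 in this order. Without WT_SE mice 3 and 5, the farthest from the median of *Cd74*, r was 0.96 for *H2-Ab1*, 0.90 for *H2-Aa*, 0.90 for *H2-DMb1*, 0.74 for *H2-Eb1*, 0.53 for *Ciita* and 0.10 for *H2-DMa*. For *H2-Eb1*, rho missed the adjusted limit of 0.05 although r passed it. Among the 7 libraries with the usual name ending, r was 0.94, 0.89, 0.89, 0.73, 0.65 and 0.25 in the same order. Within the 5 WT_EE mice, as a description, r was 0.91, 0.87, 0.79, 0.73, 0.43 and -0.15, and within the 4 WT_SE mice it was 0.99, 0.99, 0.99, 0.87, 0.97 and 0.92. The WT_SE values rest on 4 mice, of which the low ones were mice 1 and 3 with the other name ending. There, the name ending and a relation between members cannot be told apart. For *H2-DMa*, the WT_EE value was near 0, on counts that reached down to 1, so no difference between the environments is read from it.

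**Figure D3:**
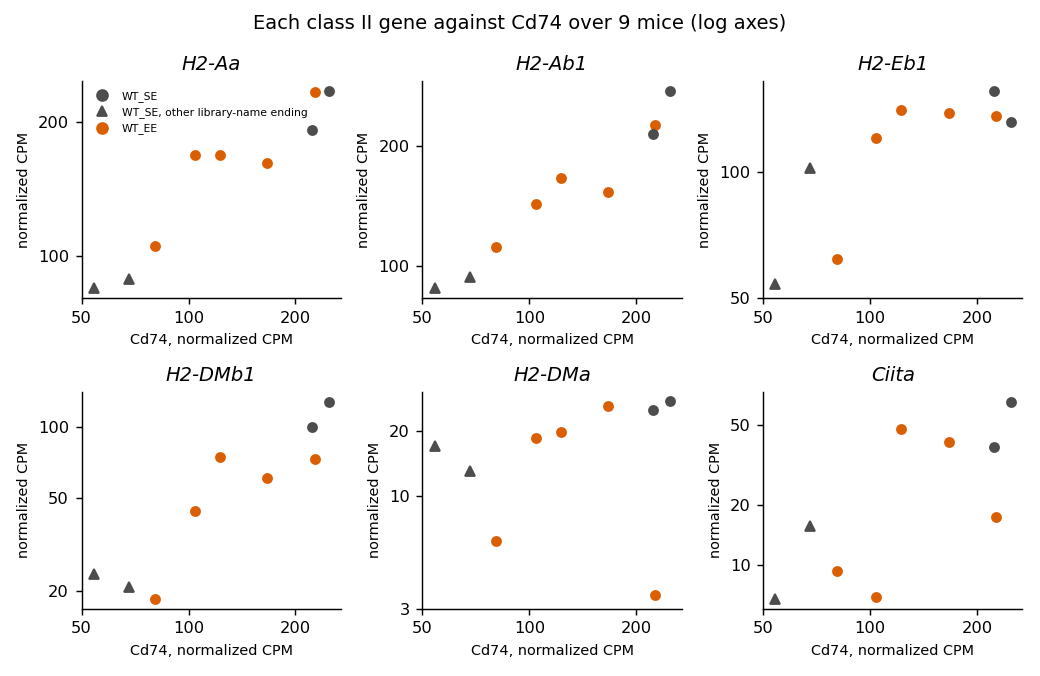
Normalized CPM of each other class II gene against *Cd74* in 9 mice, with log axes (grey, WT_SE; orange, WT_EE; triangles, WT_SE mice with the other library-name ending). *H2-Ab1* and *H2-Aa* rise along a narrow line with *Cd74* (r = 0.97 and 0.95 of log2 CPM), and *H2-DMa* does not (r = 0.19).

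Ratios within a library do not depend on its scaling. The ratio of *H2-Aa* to *H2-Ab1* counts, the chains of one molecule, was the steadiest, from 0.851 to 1.18 over the 9 mice. It was 0.944, 0.896, 0.962 and 0.851 in WT_SE mice 1, 2, 3 and 5 and 1.06, 1.03, 1.01, 0.944 and 1.18 in WT_EE mice 1 to 5. The highest WT_SE value, in mouse 3, was above the lowest WT_EE value, in mouse 4. The geometric means were 0.912 in WT_SE and 1.04 in WT_EE, a log2 difference of 0.19 (pooled SD 0.10, n = 4 and 5). A two-sided exact permutation test gave p = 0.0317, and p = 0.159 after Benjamini-Hochberg adjustment over the 5 ratios, so the difference failed the correction. The ratio of *Cd74* to *H2-Ab1* ran from 0.615 to 1.08 and that of *H2-Eb1* to *H2-Ab1* from 0.475 to 1.08, and the ratios of *H2-DMa* to *H2-DMb1* and to *H2-Ab1* spread the most, with pooled SDs of 1.16 and 1.09 on the log2 scale. These 4 ratios had unadjusted exact permutation p-values of 0.333 to 0.794.

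The other genes of the pathway were described from lists chosen with earlier results of these data known. Over 5 lists, 53 genes were tested, of which 3 were higher and 3 lower in WT_EE at an unadjusted p-value under 0.05, or 11.3% against 7.65% of all genes, and 0 passed the adjusted limit of edgeR's test with the Benjamini-Hochberg method. Among the 3 tested partners of the members, 1 was lower. This was *H2-DMb2*, the other copy of the DM beta chain, with 6, 6, 0 and 2 counts in WT_SE and 1, 0, 1, 1 and 0 in WT_EE. It differed by a log2 fold change of -2.45 (SE 0.87, unadjusted p = 0.00777 by edgeR), and only WT_SE mice 1 and 2 were above the floor. *H2-DMb2* passed the filter only through WT_SE libraries and could not have been called higher. *H2-Ob* and *H2-Eb2* had at most 3 and 2 counts, and *H2-Oa*, the alpha chain of the H2-O inhibitor of H2-DM, at most 1.

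The 15 tested genes of class II transcription had a median log2 fold change of -0.03. *Jak1*, *Irf1* and *Ifngr1*, parts of interferon signalling and the most counted of the list, had log2 fold changes of -0.25, 0.07 and -0.10 and did not pass.

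Among 10 tested genes of class II processing, *Ctsz* was higher and *Ctsd* lower. *Ctsz*, which encodes cathepsin Z, had 91.2 ± 14.8 CPM in WT_SE (SD, n = 4) and 122 ± 11.6 CPM in WT_EE (SD, n = 5), with a log2 fold change of 0.40 (SE 0.18, unadjusted p = 0.0315 by edgeR). *Ctsd*, which encodes cathepsin D, had 205 ± 10.5 CPM and 164 ± 18.1 CPM, with a log2 fold change of -0.31 (SE 0.14, unadjusted p = 0.0366 by edgeR). Neither passed without WT_SE mice 1 and 3 (unadjusted p = 0.270 and 0.0913 by edgeR). *Ctss*, the protease that trims the invariant chain, had 82 to 121 counts and a log2 fold change of -0.12. *Sppl2a* and *Ctsb* did not pass, with 0.08 and -0.09.

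Costimulation and T cell genes were near the floor, with a summed level of 37.2 to 94.7 CPM in WT_SE and 43.3 to 80.9 CPM in WT_EE, and 0 of 8 passed. *Cd274*, *Icosl* and *Trac* had log2 fold changes of 0.35, -0.99 and -0.06. Class I presentation, in which peptides are shown to CD8+ T cells, had 2 higher genes of 17. *Tap2*, a subunit of the peptide transporter, had 28.0 ± 15.7 CPM in WT_SE (SD, n = 4) and 58.4 ± 14.5 CPM in WT_EE (SD, n = 5), a log2 fold change of 1.04 (SE 0.31, unadjusted p = 0.00157 by edgeR), and it was called in 20 of 20 alternative fits. *H2-T23*, a non-classical class I gene with near copies in the genome, ranged over 1 to 5 counts in WT_SE and over 1 to 15 in WT_EE, with a log2 fold change of 1.39 (SE 0.49, unadjusted p = 0.00750 by edgeR). The most counted class I genes, *B2m*, *H2-K1* and *H2-D1*, had log2 fold changes of -0.06, 0.09 and 0.13 and did not pass.

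Cell types that carry class II molecules were read from marker lists. The 15 B cell genes summed to 16.9 to 142 CPM in WT_SE and 3.09 to 30.6 CPM in WT_EE. Of 12 tested, 5 were lower in WT_EE, *Cr2*, *Ms4a1*, *Ighd*, *Fcmr* and *Cd79b*, against 7.65% of all genes called in either direction. *Cd79a* and *Blk* were at 0 in every library. In WT_SE, *Fcmr* had 8, 6, 0 and 0 counts, *Cd79b* 3, 1, 0 and 0 and *Ighd* 6, 6, 0 and 0. None of these exceeded 1 count in WT_EE. They passed the filter only through WT_SE libraries and could not have been called higher, so the share of this list is a description and no test. *Cr2* had 8, 14, 0 and 3 counts in WT_SE and 2, 0, 1, 0 and 0 in WT_EE, with only WT_SE mice 1 and 2 above the floor. It was called in 19 of 19 alternative fits, *Fcmr* in 18 of 19, *Ighd* in 14 of 18, *Ms4a1* in 12 of 19 and *Cd79b* in 7 of 17. *Ms4a1* was not called without WT_SE mouse 1, without WT_SE mouse 2 or without WT_SE mice 1 and 3. Without the last pair, 3 of 9 tested B cell genes were lower. WT_SE mice 1 and 2 held the high B cell values, 141 and 142 CPM. WT_SE mouse 5, the highest in *Cd74*, had 21.9 CPM, and WT_SE mouse 1, low in *Cd74*, had one of the highest. The 14 dendritic cell genes summed to 51.9 to 128 CPM in WT_SE and 69.1 to 89.7 CPM in WT_EE, with 0 of 13 called. The defining genes *Flt3*, *Zbtb46* and *Itgax* had at most 6, 5 and 7 counts. The 15 macrophage genes summed to 473 to 691 CPM and 436 to 676 CPM, with 0 of 14 called and *Mertk*, *Lyz2* and *Cx3cr1* the most counted.

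No marker list had a relation to *Cd74* over the 9 mice that passed the test. With the mean log2 CPM of genes of at least 5 counts, Pearson's r ran from -0.45 for fat to 0.39 for endothelium, and the exact permutation p-values of the 9 lists were 0.223 to 0.800, or 0.708 to 0.800 after Benjamini-Hochberg adjustment. Spearman's rho ran from -0.33 to 0.48. Without WT_SE mice 3 and 5, r ran from -0.33 to 0.72, and among the 7 libraries with the usual ending from -0.43 to 0.44. For macrophages r was 0.39 (exact permutation p = 0.291), rho was 0.33 (p = 0.385), r was 0.21 without WT_SE mice 3 and 5, and r was 0.39 among the 7 libraries with the usual ending. The B cell list had no gene of that level, and the dendritic cell list had 1, *Naaa*. With summed counts in place of means, a choice made after seeing the data, *Cd74* had r = 0.17 with B cell genes (exact permutation p = 0.656), r = 0.24 with dendritic cell genes (p = 0.551) and r = 0.41 with macrophage genes (p = 0.264). Among the 7 libraries with the usual ending, r was 0.62 for B cell, -0.15 for dendritic cell and 0.49 for macrophage sums. The highest r in these 7 libraries was that of the colon position sum, 0.69, which had r = 0.23 over all 9 mice (exact permutation p = 0.539) and 0.72 without WT_SE mice 3 and 5. This sum adds genes that differed in opposite ways between mice, so it does not measure position along the colon. In WT_SE mice 2 and 3 and WT_EE mouse 1, *Slc10a2* was high while *Hoxb13* was at 0. Class I presentation genes summed in this way had r = 0.61 (exact permutation p = 0.0802, and 0.672 after adjustment over 11 lists).

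**Figure D4:**
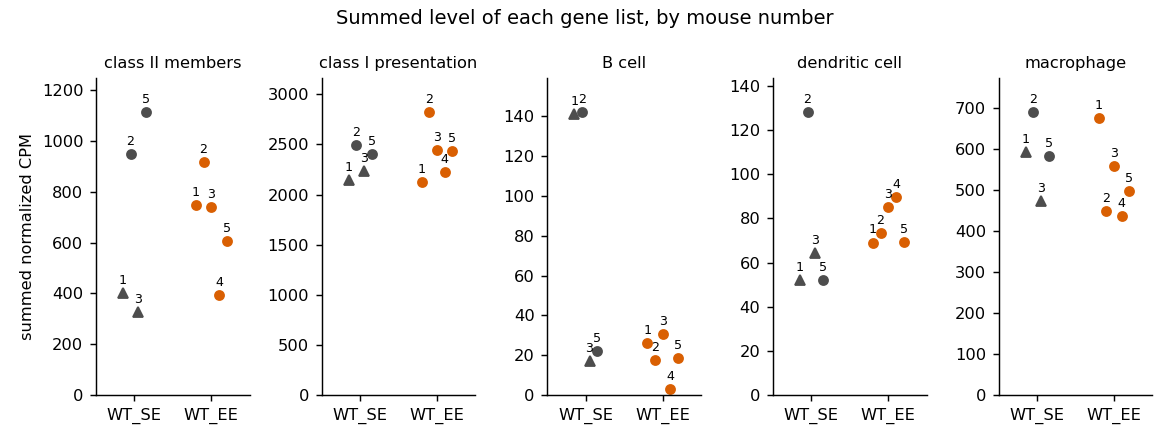
Summed normalized CPM of the 7 class II genes and of the class I, B cell, dendritic cell and macrophage lists in each mouse, numbered within WT_SE (grey) and WT_EE (orange), with each axis starting at 0. Triangles are WT_SE mice with the other library-name ending. Class II sums run from 328 to 1112 CPM, and the B cell sum is high in WT_SE mice 1 and 2 (141 and 142 CPM), which differ in class II.

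Tissue makeup also differed between the pieces. Fat genes summed to 35.5 to 953 CPM in WT_SE and 32.4 to 474 CPM in WT_EE, with the highest value in WT_SE mouse 1. *Hoxb13*, a gene of the hind end of the gut, had 4, 0, 0 and 56 counts in WT_SE and 0, 45, 21, 24 and 20 in WT_EE. *Slc10a2*, the most counted gene of the position list, had 26, 103, 110 and 16 counts in WT_SE and 107, 3, 117, 4 and 10 in WT_EE. In smooth muscle, *Acta2*, *Des* and *Smtn* of 8 genes were higher in WT_EE, as were *Lgals4* of epithelium, *Kdr* of endothelium and *Derl3* and *Iglc1* of plasma cells, whereas *Plin1* of fat and *Hoxd11* of the position list were lower, all at unadjusted p-values under 0.05 and none after adjustment. *Plin1* turned sign in 3 of 19 alternative fits, with a log2 fold change of 1.81 without WT_SE mice 1 and 3. Without these mice the 7 tested fat genes had a median log2 fold change of 2.61, against -0.60 in all 9 mice. WT_SE mice 2 and 5, which remain in that fit, had 0 counts of *Adipoq* and *Cfd*, as had WT_EE mouse 5. Their fat sums were 52.9 and 35.5 CPM in WT_SE, so these folds rest on 2 pieces with little fat RNA. *Acta2* and *Kdr* were called in 7 of 20 alternative fits each. The part of tissue makeup in the class II values was not tested beyond these correlations.

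Outside the members, 5 genes followed the class II profile most closely among the 5807 genes with a mean of at least 20 counts, measured as r over 9 mice with the mean log2 CPM of the 5 members of that level. They were *Got1*, which encodes the cytosolic aspartate aminotransferase (r = 0.89), *Fhdc1* (0.88), *Cybb*, the membrane subunit of the phagocyte NADPH oxidase (0.88), *Tprgl* (0.87) and *Ttf1*, a termination factor of ribosomal RNA transcription (0.86). *Cybb* had 21, 39, 13 and 31 counts in WT_SE and 27, 26, 29, 17 and 28 in WT_EE, low in WT_SE mouse 3 and WT_EE mouse 4 as the members were. Against the mean of the other members of that level, r was 0.97 for *H2-Ab1*, 0.96 for *H2-Aa* and for *Cd74*, 0.95 for *H2-DMb1*, 0.82 for *H2-Eb1*, 0.76 for *Ciita* and 0.29 for *H2-DMa*. The 5 genes are the highest of 5807 ranked on 9 mice that share their library and depth, so these values are descriptions without a test.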

How the data were processed

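Colon RNA of the 9 mice was sequenced with the QuantSeq 3′ mRNA kit. The authors deposited whole-number counts per gene and mouse after collapse of molecular identifiers, without normalization. The submitters' processing notes name fastp 0.20.0, STAR 2.7.0f, featureCounts 1.6.0, UMI-tools and GRCm38.p6. The floor of 3 counts covers counting error only.

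The 17441 genes that reached 4 CPM in any library were analysed with edgeR 4.0.16 in R 4.3.3 (TMM factors, quasi-likelihood F test, environment alone in the model), with Benjamini-Hochberg adjustment over all genes tested. Log CPM used a prior count of 2. Permutation tests and correlations were enumerated in full in python 3.11.15 with numpy 2.4.6. Alternatives used DESeq2 1.42.0, limma-voom (limma 3.58.1), other filters and normalizations, the library-name ending, and each mouse left out. The edgeR step was tried on counts simulated with the common dispersion and no name-ending difference, and the permutation steps on values with a known answer. The simulated counts lack the wider spread of the members, so they give no error rate for the members. The common biological coefficient of variation was 15.1%.

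The members and lists were chosen with earlier results of these data known. Named were all members, list genes with an unadjusted p-value under 0.05 and the most counted of each list, and the 5 genes most like the members. *Hoxb13*, *Flt3*, *Zbtb46* and *Itgax*, the other partners, and the markers at 0 were named after their values were seen. The values of 1 gene of the class II transcription list are not reported here.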

Additional observations from a re-analysis of the deposited data

Results flagged for a closer look

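In WT_EE mouse 4, *H2-Eb1* was at 61.9 CPM, while the other WT_EE mice lay between 120 and 140 CPM, a gap of 0.75 of the range of that group. Of 24 groups of values looked at for a mouse far from the others, 1 was found, where chance gives about 1 in 20 groups. This mouse was low for all 7 class II genes.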

How the results depend on the processing

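The fit across all genes was repeated under 20 alternatives. The number of members called rose from 0 to 4 both when the library-name ending was a covariate and without the 2 libraries of the other name ending, and in the latter case 1 member passed the exact permutation test. With the mouse number as a replicate block, 1 member was called, *H2-Aa*, with a log2 fold change of 0.33 (unadjusted p = 0.0495 by edgeR). Deviations of same-numbered mice had correlations of -0.02 to 0.08, and the labels do not tie them to each other beyond the number. Leaving out 1 mouse at a time gave 0 to 1 members called, the 1 being *H2-Aa* without WT_SE mouse 5 (log2 fold change 0.45). It gave median member log2 fold changes of -0.37 to 0.25, 3 to 8 pathway genes called, against 6, with 3 without WT_SE mouse 1 or WT_EE mouse 4, and 4 to 6 members related to *Cd74*, against 5. The *H2-Aa* to *H2-Ab1* difference kept its direction, from 0.15 to 0.23 on the log2 scale, but its unadjusted exact p-value exceeded 0.05 without 8 of the 9 mice, partly because fewer splits remain. Without the 2 libraries of the other name ending, it was 0.25, with an unadjusted exact permutation p-value of 0.0476, the smallest possible there. In that setting 0 ratios passed after adjustment. *H2-DMa* was not tested with the filterByExpr filter. The B cell list had no gene of at least 5 mean counts, so its planned mean was not run. At 1 to 24 counts per library, *H2-DMa* and *Ciita* are limited by depth.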
